A study of Mus musculus with 6 samples.

Results

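The histone genes were read as 34 probe sets of the array, out of 45037 that are not controls. A probe set is a group of short array features that together report 1 transcript or several near-identical ones. A probe set belonged here when every gene symbol annotated to it was a linker histone symbol (H1f), a core histone symbol of the histone clusters (H2ac, H2bc, H3c, H4c or the older Hist form) or a symbol of the replacement variants H2A.Z and H3.3 (H2az, H2af, H3f3). The rule reads names only, but the group was put forward with results of the same contrast in view, so the differences below are a description and are not offered as a test of the group. Of the 34, 24 were annotated to 1 gene and 10 to several, up to 12, and they named 40 histone genes, out of 19324 gene symbols on the array. There were 9 linker histone members, 19 core histone members (4 of H2A, 7 of H2B, 8 of H3 and none of H4) and 6 members for replacement variants (4 of H2A.Z, 2 of H3.3).

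The RNA came from CD8 T cells sorted out of MCA-205 tumours, a mouse sarcoma line, grown in male Eomes-GFP mice on the C57BL/6 background. Eomes, which GFP reports in this strain, is a transcription factor that CD8 T cells use in effector, memory and exhausted states. All mice received antibodies to the T cell receptors OX40 and CTLA-4: aOX40 at 250 ug per dose (days 12 and 16) and aCTLA-4 at 200 ug per dose (days 12, 14 and also 16). Tumours were taken on day 19 after implantation. The comparison was between GFP-positive cells (Eomes+) and GFP-negative cells (Eomes-), with 3 arrays each from 3 independent experiments. Both fractions therefore carry the reporter and both antibodies, and no untreated mouse was among the samples. The labels tie no array to an animal and do not say whether animals were pooled, so the errors below measure the spread between arrays.

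Core histones H2A, H2B, H3 and H4 form the protein spool of the nucleosome, and linker histone H1 binds where DNA enters and leaves it. Genes of the histone clusters are transcribed mainly in S phase, when new DNA has to be packed, and most of their mRNAs end in a stem-loop that the protein SLBP binds, in place of a poly(A) tail. The replacement variants H2A.Z and H3.3 come from ordinary polyadenylated mRNAs made throughout the cell cycle. The sources used here do not give how the labelled RNA was primed, which bears on how well transcripts without a poly(A) tail are read.

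Promoters of the members are shown because most of these genes, in every class, hold the CCAAT box, a short promoter element that the rule did not use. The other elements searched were found in fewer of them. The 200 bases before the annotated start were taken from RefSeq, assembly GRCm38.p6, for 36 of the 40 genes (37 entries, since 1 gene has more than 1). The stretches printed are those of H1f4 (chr13:23622559-23622758, minus strand), H1f2 (chr13:23738607-23738806, plus strand), H2ac19 (chr3:96240375-96240574, minus strand), H2bc22 (chr13:21787288-21787487, plus strand), H3c10 (chr13:21717428-21717627, plus strand), H2az1 (chr3:137864287-137864486, plus strand) and H3f3b (chr11:116024505-116024704, minus strand). Capitals mark matches to the CCAAT box (CCAAT), the TATA box (TATAAA), the octamer (ATTTGCAT), the H1 box (AAACACA) and an E2F-like site (TTTCGCGC), each searched on both strands. No match printed here overlaps a match to another of these motifs.
H1f4: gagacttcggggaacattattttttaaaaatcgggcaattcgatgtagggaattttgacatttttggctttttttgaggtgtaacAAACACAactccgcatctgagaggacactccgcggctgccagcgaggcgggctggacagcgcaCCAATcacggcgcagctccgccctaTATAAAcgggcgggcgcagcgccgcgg
H1f2: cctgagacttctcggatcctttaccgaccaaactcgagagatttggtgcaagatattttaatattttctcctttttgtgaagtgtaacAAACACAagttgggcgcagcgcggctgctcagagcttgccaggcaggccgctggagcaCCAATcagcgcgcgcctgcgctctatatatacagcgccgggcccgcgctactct
H2ac19: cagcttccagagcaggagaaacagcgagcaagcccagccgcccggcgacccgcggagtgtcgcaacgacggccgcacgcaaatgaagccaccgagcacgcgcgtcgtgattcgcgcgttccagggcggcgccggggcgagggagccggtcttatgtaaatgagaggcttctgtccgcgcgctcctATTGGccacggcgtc
H2bc22: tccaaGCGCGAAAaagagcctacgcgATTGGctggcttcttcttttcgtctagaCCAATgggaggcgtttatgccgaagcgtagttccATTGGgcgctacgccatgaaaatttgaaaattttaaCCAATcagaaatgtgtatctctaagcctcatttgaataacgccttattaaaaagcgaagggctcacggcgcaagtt
H3c10: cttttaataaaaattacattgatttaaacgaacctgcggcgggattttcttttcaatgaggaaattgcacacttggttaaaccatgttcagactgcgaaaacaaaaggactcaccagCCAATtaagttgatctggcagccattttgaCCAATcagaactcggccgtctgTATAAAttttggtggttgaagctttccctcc
H2az1: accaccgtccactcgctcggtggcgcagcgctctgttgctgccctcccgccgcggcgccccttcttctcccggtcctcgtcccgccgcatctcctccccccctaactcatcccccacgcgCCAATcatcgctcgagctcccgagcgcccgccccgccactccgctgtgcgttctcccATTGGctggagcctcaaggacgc
H3f3b: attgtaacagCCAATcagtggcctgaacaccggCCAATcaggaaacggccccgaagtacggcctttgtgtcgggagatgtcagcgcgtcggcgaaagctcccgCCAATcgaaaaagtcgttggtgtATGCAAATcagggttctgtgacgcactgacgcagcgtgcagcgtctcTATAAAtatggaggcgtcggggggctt

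The CCAAT box was present in 33 of the 37 member promoters (89.2%), against 29.3% of all 32851 promoters of the same length. It was found in 12 of 12 H2A, 5 of 5 H2B, 8 of 10 H3 and 4 of 6 H1 promoters, and in all 4 of the replacement variants. The octamer, known as an element of H2B promoters, was in 8 of 37 (21.6%, against 1.38% of all promoters), including 3 of 5 for H2B and 4 of 12 for H2A. The H1 box, named for its place upstream of linker histone genes, was in 3 of 6 H1 promoters and in 5 of 37 overall (13.5%, against 4.8%). TATAAA was in 11 of 37 (29.7%, against 9.96%), and the E2F-like site was in 3 of 37 (8.11%, against 0.216%). A match is a run of letters and not a measured binding site. The entries are not all separate stretches, since some neighbouring H2A and H2B genes share bases, as do the near-identical H2ac19 and H2ac18.

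Both linker gene promoters printed above held an H1 box and a CCAAT box at similar distances from the start, and only that of H1f4 a TATAAA match. In H1f4 the H1 box began 115 bases before the start, the CCAAT box 52 and the TATA box 27. In H1f2 the H1 box began 112 bases before the start and the CCAAT box 54. H3c10 had CCAAT boxes at 83 and 53 bases and a TATA box at 31. The H2bc22 promoter held 4 CCAAT matches and lies between the starts of H2ac22 and H2bc22, which are 239 bases apart and point away from each other. An H2A and an H2B gene faced away from each other in this manner in 9 pairs, with starts 163 to 280 bases apart. At least 7 of the 10 genes read by the main H2A member belong to such a pair. No promoter entry was available for H2bc4, H2bc21, H3c1 and H3c7, so pairs with H2bc4 or H2bc21 could not be counted. The H2ac19 promoter shared an unbroken run of 169 bases with the promoter entry of H2ac18, a near-identical copy.

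The sort and the make-up of the samples were checked before the histones. Eomes itself (1435172_at) had a log2 signal of 9.54 ± 1.04 (SD, n = 3) in Eomes+ and 6.39 ± 0.83 in Eomes- arrays, a difference of 3.15 (SE 0.63), and the groups did not overlap. Cd8a lay at 12.71 in Eomes+ and 13.04 in Eomes- on average with 1425335_at, and at 12.61 and 13.20 with 1451673_at. All its probe sets had a lower mean in Eomes+, by -0.58 to -0.21, with overlapping arrays. Of 7 B cell genes, 3 passed the detection filter with their brightest probe set (Cd79a on all 6 arrays) and 3 were above it on 0 arrays, among them Ms4a1. Within each fraction the array numbered 3 stood apart: the mean of 13 T cell genes was 10.71 in Eomes+ 3 and 10.82 in Eomes- 3, against 11.77 to 12.12 on the other 4 arrays. On those 2 arrays the mean of 21 fibroblast and tumour genes was 11.64 and 11.62, against 8.75 to 10.71 on the other 4. The 3 prime minus 5 prime log2 difference of the Gapdh control probe sets, a measure of RNA degradation, was 1.88, 1.77 and 1.55 in Eomes+ and 1.54, 1.07 and 1.11 in Eomes- arrays (two-sided exact permutation p = 0.1, the smallest that 3 against 3 arrays can give).

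H1f4 and 3 of the 4 H2A members had lower signal on every Eomes+ array than on every Eomes- array, by 0.60 to 0.97 on the log2 scale, while the H2A.Z and H3.3 members had differences within or near their standard error. The 7 members whose arrays did not overlap between the fractions were all lower in Eomes+: H1f4, 1 of 3 probe sets for H1f2, 3 of 4 for H2A, 1 for H2B (H2bc22) and 1 for H3 (H3c10 and H3c2). Among the 27766 probe sets that passed the filter, 5.14% had non-overlapping arrays that were lower in Eomes+ and 2.92% that were higher. In this bulk RNA, fewer cells of a kind and less RNA per cell cannot be told apart.

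No histone probe set was called. In limma over the whole table, 0 of 27766 probe sets (0%) passed an adjusted p of 0.05, and the adjusted p of each tested member was 1. An unadjusted p under 0.05 was found for 936 probe sets, 2.27% of those tested with a lower and 1.11% with a higher mean in Eomes+. The filter asked for a signal above the array's own 40th percentile (5.70 to 5.72 on the log2 scale) on at least 3 of 6 arrays. It passed 27 of the 34 members, 24 of them on all 6 arrays, and the 7 others were above that level on 0 arrays. Of the 27, 4 had an unadjusted p under 0.05 and a lower mean in Eomes+, against 2.27% of all tested probe sets with that direction, and 0 had one with a higher mean, against 1.11%. With limma's array quality weights, H1f4 and the 10-gene H2A member passed the adjusted threshold, both with a lower mean in Eomes+. Under that setting 0.198% of all tested probe sets passed with a lower mean and 0.0684% with a higher one. The weights lowered p over the whole table: 6270 probe sets had an unadjusted p under 0.05, beside 936 in the main fit. Among the members there were 7, beside 4.

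Over all 34 members, 24 had a lower and 10 a higher mean in Eomes+, with a median difference of -0.09. Of the 27 members that passed the filter, 21 had a lower and 6 a higher mean, with a median of -0.21. Over all tested probe sets the median was -0.02, and 53.4% had a lower mean. The median was -0.20 for the 19 core members, -0.08 for the 9 linker members and 0.01 for the 6 replacement members. Within the core members it was -0.81 for H2A, -0.09 for H2B and 0.04 for H3. Counting only members that passed the filter, the median was -0.34 for core, -0.81 for H2A, -0.26 for H2B and -0.21 for H3. Within the replacement members it was 0.12 for H2A.Z and -0.27 for H3.3. These medians hide a spread within the classes, from -0.97 for an H2A member to 0.45 for an H3 member that was below the filter on all arrays. The members are not independent readings: 25 of the 34 share a gene with another member.

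**Figure D1:**
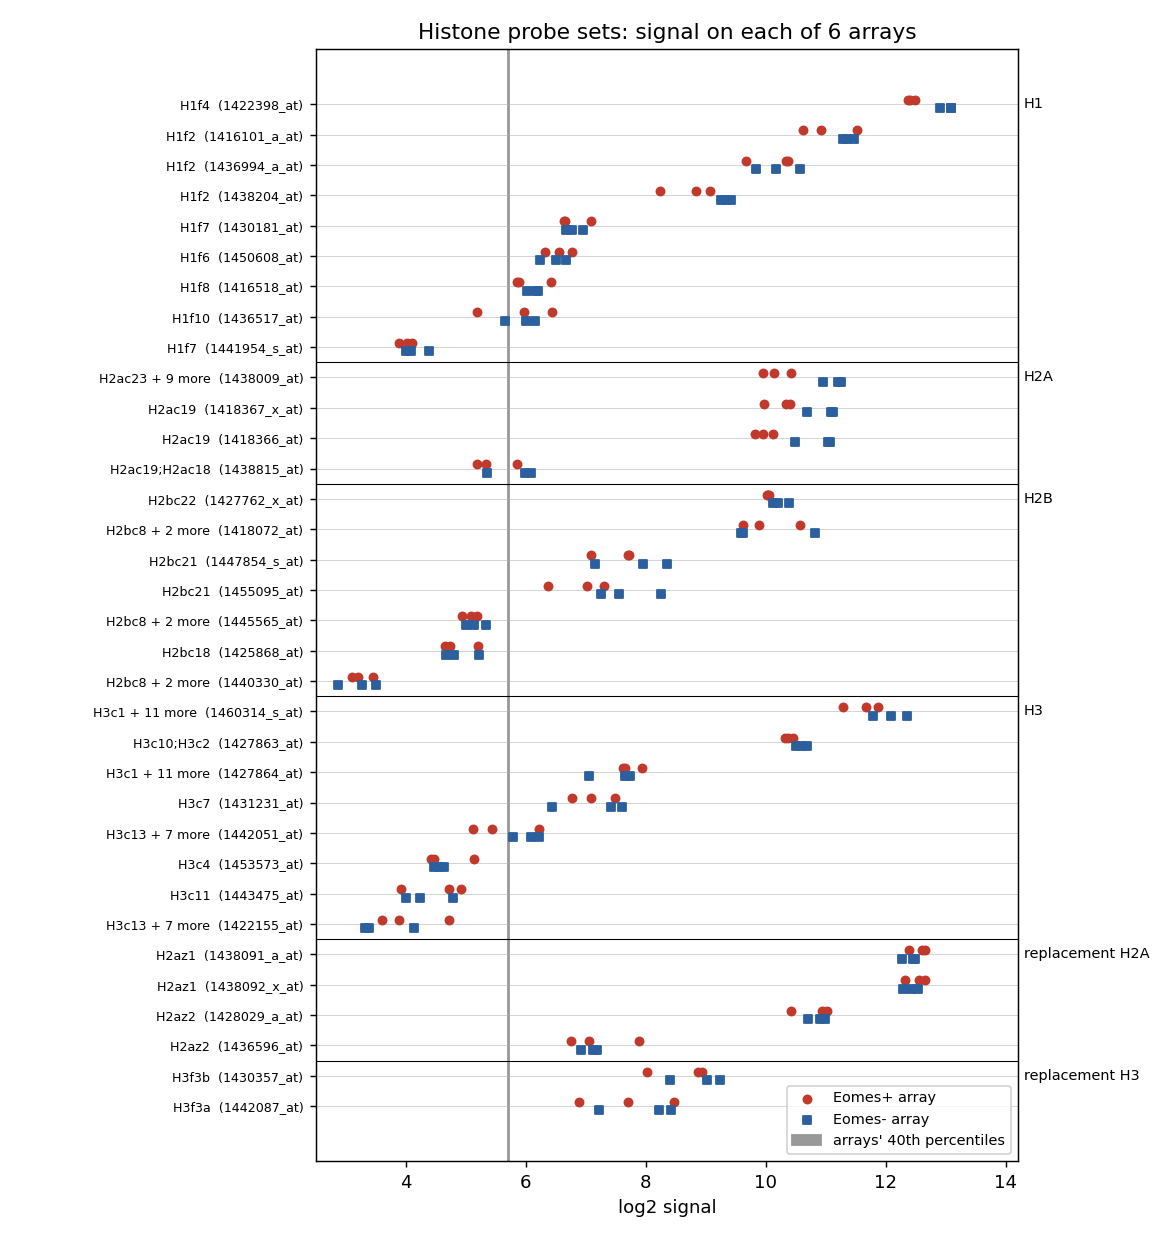
Log2 signal (horizontal axis) of each of the 34 histone probe sets on the 3 Eomes+ arrays (circles) and the 3 Eomes- arrays (squares), grouped by histone class; the grey band marks the arrays' 40th percentiles, 5.70 to 5.72. The H1f4 circles, 12.37 to 12.49, lie left of all its squares, 12.90 to 13.09, while the circles and squares of H2az1 overlap.

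H1f4 (older name Hist1h1e), one of the linker histones of somatic cells, read 12.40, 12.49 and 12.37 on the Eomes+ arrays and 13.09, 13.08 and 12.90 on the Eomes- arrays. All 3 Eomes+ arrays were below all 3 Eomes- arrays, and the arrays within a fraction lay close together. The mean was 12.42 ± 0.06 in Eomes+ and 13.02 ± 0.11 in Eomes-, a difference of -0.60 (SE 0.09), or 1.52-fold lower. The array numbered 3, which held the least T cell signal in each fraction, had the lowest H1f4 value of its fraction. The part of T cell content in the H1f4 difference was not tested.

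H1f2 (Hist1h1c), another somatic linker histone, was read by 3 probe sets that did not give 1 answer. Probe set 1438204_at read 9.06, 8.83 and 8.24 in Eomes+ and 9.33, 9.42 and 9.25 in Eomes-. Its groups did not overlap, with a difference of -0.63 (SE 0.27), and its Eomes+ arrays were much more spread than its Eomes- arrays. Probe set 1416101_a_at read 10.93, 10.62 and 11.52 against 11.29, 11.47 and 11.35. Here the array Eomes+ 3 was the highest of all 6, and the difference of -0.34 (SE 0.24) came with overlapping groups. Probe set 1436994_a_at differed by -0.07 (SE 0.29), so the size for H1f2 ranged from near 0 to that of H1f4. With single arrays left out, 1436994_a_at turned to 0.16 (without Eomes+ 2) and 0.12 (without Eomes- 1). Probe set 1416101_a_at moved to -0.14 without Eomes+ 2 and to -0.59 without Eomes+ 3, and 1438204_at to -0.39 without Eomes+ 3.

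The remaining linker members were low on these arrays and had small differences. They read H1f6, the testis linker histone (0.08, SE 0.25), H1f7 of spermatids (-0.01, SE 0.25, and -0.15 in a probe set below the filter), H1f8 of oocytes (-0.08, SE 0.25) and H1f10, a linker histone gene outside the clusters (-0.08, SE 0.36). In all 5 of these probe sets the arrays of the fractions overlapped. Their signal lay between 3.89 and 7.09.

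H2A had the lowest differences of any class. The probe set 1438009_at, annotated to 10 near-identical H2A genes (H2ac4, H2ac6, H2ac7, H2ac8, H2ac11, H2ac12, H2ac13, H2ac22, H2ac23 and H2ac24), read 9.95, 10.13 and 10.42 in Eomes+ and 10.96, 11.26 and 11.20 in Eomes-. Every Eomes+ array was lower than every Eomes- array. The difference was -0.97 (SE 0.19), 1.97-fold lower and the lowest of all 34 members. Which of the 10 genes contributed cannot be told from this probe set.

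H2ac19 (Hist2h2aa2), a core H2A gene outside the large cluster, had lower signal in both of its own probe sets. Probe set 1418366_at read 9.81, 10.11 and 9.95 in Eomes+ and 10.49, 11.06 and 11.03 in Eomes-, a difference of -0.90 (SE 0.22). Probe set 1418367_x_at read 9.98, 10.34 and 10.41 against 10.68, 11.09 and 11.12, a difference of -0.72 (SE 0.21). In both, the 3 Eomes+ arrays lay below the 3 Eomes- arrays, and in both Eomes- 1 was the lowest of its fraction. They read the same gene and do not count as separate evidence. A further probe set for H2ac19 and H2ac18, 1438815_at, was near the filter level and read 5.18, 5.85 and 5.34 against 6.08, 5.35 and 5.98. Its groups overlapped, its difference was -0.34 (SE 0.30), and with array quality weights it turned to 0.25.

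**Figure D2:**
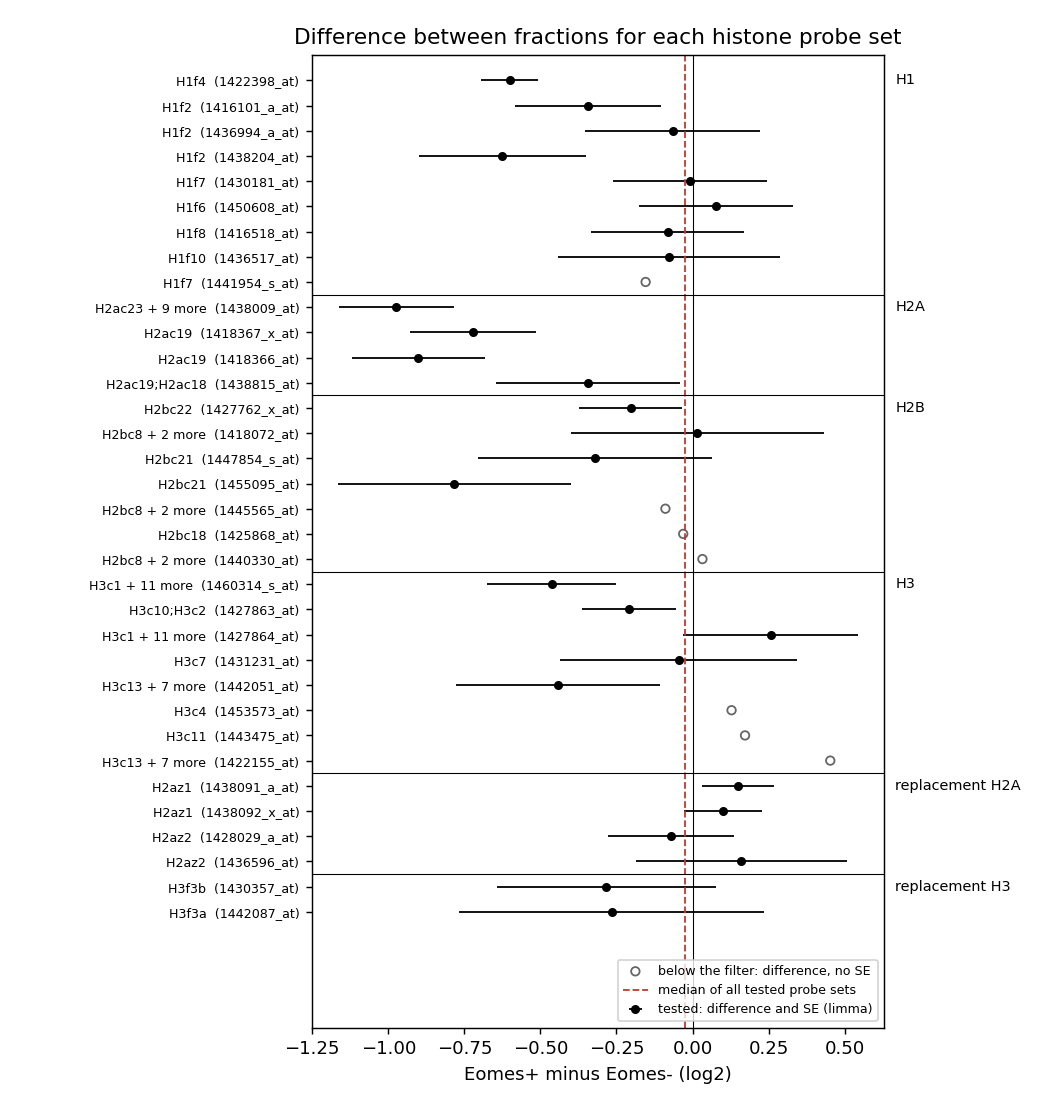
Difference of mean log2 signal, Eomes+ minus Eomes- (horizontal axis), for each of the 34 histone probe sets by class; filled points with bars are the 27 tested members with their limma standard error, open points the 7 below the filter, and the dashed line is the median of all tested probe sets, -0.02. The H2A members lie between -0.97 and -0.34, and the H2A.Z members between -0.07 and 0.16.

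The H2B members, partners of H2A in the nucleosome, were mixed. H2bc21 (Hist2h2be), from the same smaller cluster as H2ac19, read 7.02, 7.31 and 6.37 in Eomes+ and 8.25, 7.56 and 7.24 in Eomes- with probe set 1455095_at. The difference was -0.78 (SE 0.38), but Eomes+ 2 lay above Eomes- 3, so the groups overlapped. Its other probe set, 1447854_s_at, differed by -0.32 (SE 0.38). H2bc22 read 10.03, 10.02 and 10.05 against 10.39, 10.20 and 10.12. These groups did not overlap, and the Eomes+ arrays were almost equal. The difference was -0.20 (SE 0.17).

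The probe set for H2bc4, H2bc6 and H2bc8, 1418072_at, showed no such gap. It read 9.62, 9.88 and 10.57 in Eomes+ and 9.62, 9.58 and 10.82 in Eomes-, a difference of 0.02 (SE 0.42). In each fraction the array numbered 3 was the highest, as it was for the fibroblast and tumour genes; the part of those cells in this reading was not tested. The other probe sets for the same 3 genes (-0.09 and 0.03) and the one for H2bc18 (-0.03) were below the filter on all arrays.

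The H3 members did not share a direction. Probe set 1460314_s_at, which reads 12 H3 genes, gave 11.28, 11.88 and 11.67 in Eomes+ and 11.78, 12.09 and 12.35 in Eomes-. Its Eomes+ mean was lower by more than the SD of either fraction, but Eomes+ 2 lay above Eomes- 1, and the difference was -0.46 (SE 0.21). The probe set for H3c10 and H3c2, 1427863_at, read 10.37, 10.45 and 10.32 against 10.51, 10.58 and 10.68. These groups did not overlap, with a small difference of -0.21 (SE 0.15). A second probe set for the same 12 genes, 1427864_at, went the other way: it read 7.62, 7.94 and 7.65 against 7.66, 7.73 and 7.05, a difference of 0.26 (SE 0.29) with overlapping groups.

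H3c7 alone differed by -0.05 (SE 0.39), and the 8-gene probe set 1442051_at by -0.44 (SE 0.34) at signals around the filter level. H3c4 (0.13) and H3c11 (0.17) were below the filter. So was 1422155_at, which reads the same 8 genes as 1442051_at and had the highest difference of all members, 0.45, from 4.72, 3.60 and 3.88 against 3.32, 3.38 and 4.14. Its value rested on Eomes+ 1, and the groups overlapped.

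The H2A.Z members did not share the lower H2A signal. H2az1 (H2afz), which encodes the main H2A.Z, an H2A variant placed around transcription start sites, read 12.66, 12.38 and 12.60 in Eomes+ and 12.45, 12.26 and 12.49 in Eomes- with probe set 1438091_a_at. The groups overlapped and the difference was 0.15 (SE 0.12), and it was 0.10 (SE 0.13) with 1438092_x_at. H2az2 (H2afv), the second H2A.Z gene, differed by -0.07 (SE 0.21) and 0.16 (SE 0.35). The difference between the H2A and H2A.Z members was not tested, because the members were chosen with the contrast known.

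H3.3, the H3 variant placed outside replication, is encoded by H3f3a and H3f3b. H3f3a (1442087_at) read 7.70, 8.47 and 6.89 in Eomes+ and 8.41, 8.22 and 7.22 in Eomes-, a difference of -0.27 (SE 0.50). H3f3b (1430357_at) read 8.93, 8.86 and 8.01 against 9.23, 9.02 and 8.40, a difference of -0.28 (SE 0.36). In both genes the array numbered 3 was the lowest of each fraction and the groups overlapped.

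**Figure D3:**
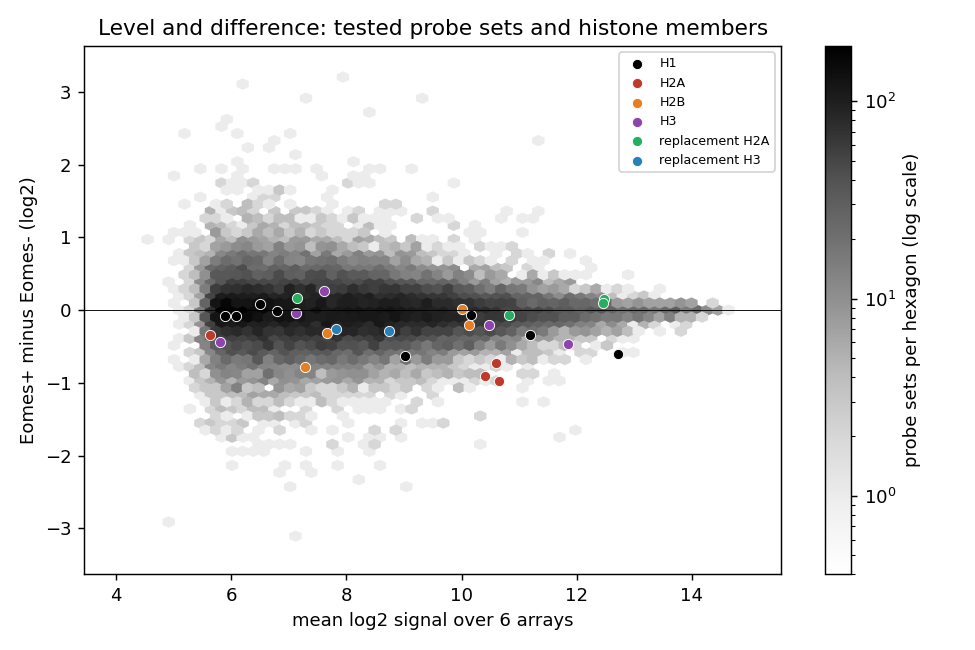
Mean log2 signal over the 6 arrays (horizontal axis) against the Eomes+ minus Eomes- difference (vertical axis) for the 27766 tested probe sets, as hexagons shaded by their number on a log scale, with the 27 tested histone members as coloured points by class. At the signal of the 3 bright H2A members and of H1f4 most probe sets lie close to 0, and these members lie at the lower edge of the cloud.

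Further histone probe sets fell outside the rule because 1 or more of their annotated symbols did not match it. There were 14, of which 12 passed the filter, and they hold the only reading of H4. The bright H4 probe set, 1422948_s_at, which reads 13 H4 genes, gave 13.10, 13.43 and 13.37 in Eomes+ and 13.35, 13.53 and 13.69 in Eomes-. The groups overlapped, with a difference of -0.22 (SE 0.12). Probe sets 1424854_at and 1428014_at for the same genes had a higher mean in Eomes+, by 0.45 (SE 0.28) and 0.50 (SE 0.41). An 11-symbol H2B probe set, 1452540_a_at, read 13.41, 13.58 and 13.62 against 13.69, 13.71 and 13.91, which did not overlap, with a difference of -0.23 (SE 0.09). A 6-symbol H2B probe set, 1425398_at, differed by -1.18 (SE 0.53) with overlapping groups near the filter level. The 5 probe sets that read both H3.3 genes with related sequences differed by -0.19 to 0.10, and the 2 that read H2az1 with a related sequence by -0.01 and 0.16. The lowest of these, 1423263_at for H3.3 (-0.19, SE 0.12), did not overlap, with 11.49 to 11.64 in Eomes+ and 11.67 to 11.86 in Eomes-. The others overlapped.

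Histone variants that the rule does not name had differences that were small or came with a large standard error. H2ax, whose phosphorylated form marks DNA breaks, differed by 0.08 (SE 0.18), Macroh2a1 by 0.07 (SE 0.27) and Macroh2a2 by 0.12 (SE 0.51). Macroh2a3 had the largest of these differences and the largest errors, 0.77 (SE 0.61) and 0.32 (SE 0.53) in its 2 probe sets. The brightest probe set of H2aj, an H2A gene outside the clusters, 1424771_at, differed by 0.18 (SE 0.12).

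The genes that supply histones, from transcription and 3 prime end processing to chaperones and nuclear import, had nearly as many higher as lower means in Eomes+ when each gene was read by its brightest probe set. The list held 47 genes, of which 43 had a probe set annotated to them alone and 42 passed the filter with their brightest probe set. Of these 42, 22 had a higher and 20 a lower mean in Eomes+, 0 passed the adjusted threshold, and the median difference was 0.01. At an unadjusted p under 0.05 there was 1 with a lower and 1 with a higher mean. Over all 99 tested probe sets of the list, 57 had a lower and 42 a higher mean, with a median of -0.02. Of the 99, 5 had an unadjusted p under 0.05 with a lower and 1 with a higher mean, against 2.27% and 1.11% of all tested probe sets. The arrays did not overlap in 13 that were lower and 3 that were higher, against 5.14% and 2.92%. Slbp, the stem-loop binding protein, differed by -0.09 (SE 0.23), and Npat, the coactivator of cluster histone genes in S phase, by -0.24 (SE 0.25).

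Among the chaperones, Asf1b, which hands H3 and H4 on during replication, differed by 0.25 (SE 0.24). Nap1l1, a chaperone of H2A and H2B, had the smallest p among brightest probe sets with a lower mean: it was 12.13 ± 0.04 in Eomes+ and 12.41 ± 0.09 in Eomes- (SD, n = 3), a difference of -0.28 (SE 0.10). Its 7 tested probe sets were all lower in Eomes+, from -0.49 (SE 0.15) to -0.01 (SE 0.17). The H3.3 chaperone Hira differed by -0.16 (SE 0.39), Daxx by -0.14 (SE 0.23) and its partner Atrx by -0.23 (SE 0.12). Ubn2, a subunit of the Hira complex, had the smallest p among the brightest probe sets, with 9.56 ± 0.59 in Eomes+ and 8.58 ± 0.12 in Eomes- and a difference of 0.98 (SE 0.33). Its other tested probe sets did not give the same direction: they differed by -0.71 (SE 0.30), with all Eomes+ arrays lower, by -0.11 (SE 0.26) and by 0.29 (SE 0.37). None of these genes passed adjustment over the table, and Chaf1a was not analysed here.

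Because cluster histone genes are transcribed in S phase, cell cycle genes were read on the same arrays. The mean of 27 DNA replication genes was 9.80, 9.93 and 9.95 in Eomes+ and 9.93, 9.78 and 9.97 in Eomes-. The groups overlapped, 13 genes had a higher and 14 a lower mean in Eomes+, and the median difference was -0.01. The mean of 18 mitosis genes was 8.91, 9.43 and 9.64 against 9.37, 9.28 and 9.91, with 13 genes lower, 5 higher and a median difference of -0.15. Mki67, the proliferation marker Ki-67, differed by -0.15 (SE 0.14). The mitosis list means overlapped between the fractions as well, and the relation of histone signal to cell cycle was not tested.

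**Figure D4:**
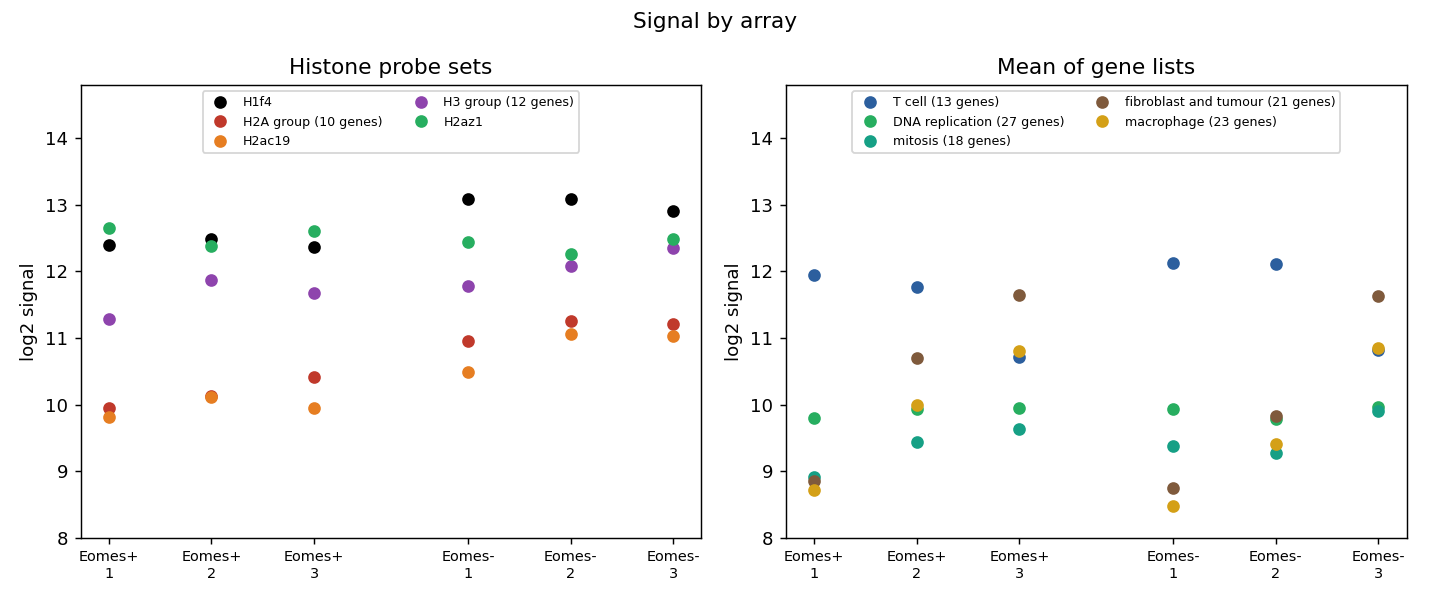
Log2 signal (vertical axis) on each of the 6 arrays, for 5 histone probe sets (left) and for the mean of 5 gene lists (right). H1f4, the 10-gene H2A probe set and H2ac19 are lower on every Eomes+ array than on every Eomes- array, while the DNA replication list stays between 9.78 and 9.97 and the fibroblast and tumour list runs from 8.75 to 11.64.

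Fibroblast, tumour and macrophage markers varied more among the arrays of a fraction than between the fractions. All 21 fibroblast and tumour genes had a higher mean in Eomes+, with a median difference of 0.30 and list means of 8.85 to 11.64 in Eomes+ and 8.75 to 11.62 in Eomes-. Of 23 macrophage genes 16 had a higher mean in Eomes+, with list means of 8.72 to 10.81 against 8.47 to 10.85. Of 13 T cell genes 11 had a lower mean in Eomes+, with list means of 10.71 to 11.95 against 10.82 to 12.12. Of 7 genes of CD4 and regulatory T cells 6 had a lower mean in Eomes+, with a median difference of -0.34 and list means of 8.43, 8.18 and 7.90 against 8.81, 9.02 and 8.21. This list moved in the direction of the lower histone members. The list means of all 4 overlapped between the fractions, and their part in the histone differences was not tested.

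For H1f4 and the H2A members other than 1438815_at, leaving arrays out could not turn the sign, because their fractions did not overlap. Only the size of their differences could move. Without any single array, or without both arrays of a number, H1f4 stayed between -0.66 and -0.56, the 10-gene H2A member between -1.10 and -0.87, and the H2ac19 probe sets between -1.09 and -0.80 and between -0.86 and -0.59. The median of all members ranged from -0.21 to -0.05 over the same fits and that of the replacement members from -0.06 to 0.10. The Gapdh 3 prime minus 5 prime difference was 1.74 ± 0.17 in Eomes+ and 1.24 ± 0.26 in Eomes- arrays. It was higher on every Eomes+ array than on every Eomes- array, while H1f4 and the H2A members other than 1438815_at were lower. The 3 prime minus 5 prime difference for Actb was 0.13 ± 0.04 and 0.05 ± 0.06 (SD, n = 3; two-sided exact permutation p = 0.2). The part of RNA quality in the histone differences was not tested.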

How the data were processed

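The authors deposited 1 table of log2 signals for 45101 probe sets on 6 arrays, with values from 1.68 to 14.95. Per the submitters' processing notes, MAS5 and Transcriptome Analysis Console were used, with no versions or roles given. The scale was read from the values, and array medians of 6.35 to 6.42 show that arrays had been scaled to each other. No genome build of the table is given in the sources used here. Groups came from the sample titles. Members and lists were chosen with earlier results of these data known.

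After leaving out 64 controls, probe sets above their array's 40th percentile on at least 3 arrays (27766) were fitted with limma 3.58.1 in R 4.3.3 (lmFit, eBayes with an intensity trend, two-sided) and adjusted by Benjamini-Hochberg over all of them. The script was tested on simulated data. Of the 45037 others, 34945 had 1 symbol, 932 several and 9160 none. In each class the brightest member and the 2 of smallest p were named, with all H1f2, H1f10, H2bc21, H2A.Z and H3.3 members and the extremes; the remaining members are given in brief. The number of arrays limits the precision. No stated method uses the title number, so the main fit did not take it as a pairing. Deviations from the fraction means correlated at 0.595, 0.0989 and 0.628 for arrays sharing number 1, 2 and 3. Between numbers 1 and 3 they correlated at -0.619 (Eomes+ 1 with Eomes- 3) and -0.561 (Eomes+ 3 with Eomes- 1). These values leave a pairing possible, and the fit with the number as a block is given below. Alternatives are given in the closing section.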

Additional observations from a re-analysis of the deposited data

How the results depend on the processing

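Over 21 other settings, 706 of 714 member values kept their side of the threshold and moved by less than the spread. Of the others, 2 passed it and 6 moved by more without passing it. These counts overstate stability. The block, the other filters and the fit without a trend cannot change a difference. The block fits with arrays left out repeat the differences of those without a block. Members below the filter had no p in most settings and were judged by size alone. A sign turned in 66 of the 714, over 18 members, and 16 members never turned. The counts of called probe sets over the table, among the histones and among the supply genes were 0 with other filters, scalings, pseudocounts and no trend, and ran from 0 to 0 with arrays left out of the fit without a block. With array quality weights 74 probe sets were called over the table, 55 of them lower and 19 higher in Eomes+, and 2 were histones: H1f4 (-0.61, adjusted p = 0.0352) and the 10-gene H2A member (-1.08, adjusted p = 0.0446); the linker median was then -0.33. The cause was not tested. With arrays left out, the median ranged from -0.21 to -0.05 for all members, -0.26 to -0.10 for core, -0.28 to -0.05 for linker and -0.06 to 0.10 for replacement members.

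With the replicate number as a block, 0 probe sets and 0 histones were called (smallest adjusted p of a member 0.0774, H1f4), while 2748 probe sets had an unadjusted p under 0.05, beside 936 without it. With the block and both arrays of number 2 left out, a setting added after seeing the data, 1 probe set was called. Eomes- 2 correlated more with Eomes+ 1 (0.302) than with Eomes+ 2 (0.0989).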
